A study of Mus musculus with 9 samples.

Results

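The genes described here make cholesterol, sense it and move it, in primary mouse myoblasts that had lost Uqcrfs1. The set was given by name and holds 32 of the 55536 genes in the count table: 18 enzymes of cholesterol synthesis, 5 genes of the SREBP transcription factors and their control, 2 LXR receptors, 5 LXR target and efflux genes, and 2 genes of sterol transfer and storage. Of these, 31 had enough counts to be tested among 15720 genes. Abcg1, a sterol exporter, had 1 to 6 counts per library and was not tested.

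Myoblasts are the dividing precursors of muscle fibres, and Uqcrfs1 encodes the Rieske iron-sulphur subunit of mitochondrial complex III. RNA was sequenced from 9 libraries in 3 groups of 3. The floxed vehicle group carried the genotype uqcrfs1 +/+ (floxed), had received adenoviral GFP and was kept in DMSO. The knockout vehicle group was uqcrfs1 -/- after adenoviral Cre and was kept in DMSO. The knockout oxybutynin group was uqcrfs1 -/- after the same virus and had 7.5 µM oxybutynin, a muscarinic receptor antagonist, for 5 days. All cells were floxed, grew in Ham's F-10 medium with horse serum, were seeded 72 h after virus and were treated 24 h later. Genotype goes with the virus given, so the effect of losing Uqcrfs1 and that of Cre cannot be told apart, and no floxed cells had oxybutynin. The labels do not say whether the 3 libraries of a group came from separate cultures or animals, so p-values measure the spread among these libraries only, which could be technical in origin.

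Cholesterol is built from acetyl-CoA through mevalonate and the isoprenoid diphosphates to squalene, and squalene is then closed into a ring and trimmed to cholesterol. The isoprenoids also feed protein prenylation, dolichol and ubiquinone, whose reduced form is the substrate of complex III. SREBP proteins switch on the synthesis genes: Scap escorts them from the endoplasmic reticulum for cleavage when membrane sterol is low, and Insig proteins hold them back when it is high. LXR receptors bind oxysterols and switch on export and lipid transfer genes.

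The promoters of 5 called genes with low p-values and a motif match are printed first, because SREBP is known to act at such sites together with the CCAAT-binding factor NF-Y. RefSeq windows of 300 bases (build GRCm38.p6, 250 before and 50 after the annotated start) were found for 27 of the 32 genes, in 38 windows, and not for Abcg1, Fdft1, Fdps, Sqle and Stard4. The 250 bases before the start are given 5′ to 3′ on the gene's strand, with matches to the motifs in capitals. Hmgcs1 lies at chr13:119690101-119690350 (plus), Idi1 at chr13:8885356-8885605 (plus), Cyp51 at chr5:4104698-4104947 (minus), Insig1 at chr5:28071162-28071411 (plus) and Pltp at chr2:164857709-164857958 (minus).
Hmgcs1: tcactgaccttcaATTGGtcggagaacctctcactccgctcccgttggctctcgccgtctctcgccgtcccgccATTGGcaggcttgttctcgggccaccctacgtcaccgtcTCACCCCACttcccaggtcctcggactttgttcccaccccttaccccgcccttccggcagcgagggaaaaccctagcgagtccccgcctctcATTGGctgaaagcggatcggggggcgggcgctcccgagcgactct
Idi1: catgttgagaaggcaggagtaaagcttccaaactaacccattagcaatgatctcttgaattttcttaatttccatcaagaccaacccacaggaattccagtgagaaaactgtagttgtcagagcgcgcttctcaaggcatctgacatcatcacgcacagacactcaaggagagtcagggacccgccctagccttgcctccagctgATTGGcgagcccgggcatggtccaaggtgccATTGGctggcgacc
Cyp51: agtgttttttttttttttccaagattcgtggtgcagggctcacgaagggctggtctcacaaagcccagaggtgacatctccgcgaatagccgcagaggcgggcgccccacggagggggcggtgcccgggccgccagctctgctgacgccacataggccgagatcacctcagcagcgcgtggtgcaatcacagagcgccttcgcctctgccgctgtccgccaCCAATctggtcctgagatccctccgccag
Insig1: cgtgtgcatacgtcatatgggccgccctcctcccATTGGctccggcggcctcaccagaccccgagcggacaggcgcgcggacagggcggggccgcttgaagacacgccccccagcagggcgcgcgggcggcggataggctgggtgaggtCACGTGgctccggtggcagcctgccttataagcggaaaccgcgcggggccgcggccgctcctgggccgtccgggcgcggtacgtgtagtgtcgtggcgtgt
Pltp: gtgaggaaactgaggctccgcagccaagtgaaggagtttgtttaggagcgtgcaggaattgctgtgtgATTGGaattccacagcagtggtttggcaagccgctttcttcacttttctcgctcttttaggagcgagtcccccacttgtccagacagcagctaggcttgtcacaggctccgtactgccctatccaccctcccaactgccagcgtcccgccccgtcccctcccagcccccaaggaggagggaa
All motifs were searched on both strands. The sterol regulatory element core TCACCCCAC was found in 1 window, that of Hmgcs1 (bases -137 to -129 from the start), against 0.551% of 32851 RefSeq windows. Its looser form TCACNCCAC, which includes the core, gave the same window and 1.24% of all windows. The CCAAT box, which reads ATTGG on the other strand, was in 22 of 38 windows (57.9%) against 37.4% of all, and Hmgcs1 holds 3 in the printed stretch. The E-box CACGTG was in 7 of 38 windows (18.4%) against 7.15%, among them Insig1 (bases -101 to -96). Overlapping windows of Scap hold the same site, so these 7 windows belong to 6 of the 27 genes. The lysosomal CLEAR motif TCACGTGAC, which contains the E-box, and the LXR repeat (AGGTCA repeated after 4 bases, 1 mismatch allowed) were in 0 of 38 windows, and in 0.782% and 0.25% of all windows.

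The labels and libraries were checked before the comparisons. Library totals ran from 19604971 to 26226949 counts. Uqcrfs1 had 1539 to 1881 counts in floxed vehicle libraries, 51 to 70 in those of knockout vehicle and 46 to 71 in those of knockout oxybutynin. Markers of myoblasts summed to 4796 to 4990, 4788 to 5742 and 5591 to 5817 CPM (counts scaled to a common library size, here with edgeR's TMM factors) in the same order of groups. Single myoblast markers moved both ways. Cdh15, Megf10 and Myf5 were lower in every knockout vehicle than floxed vehicle library (log2 fold changes of -0.88, -0.94 and -0.39). Pax7, Des and Ncam1 were higher in every one (0.26, 0.43 and 0.34). With the GC and length trend removed (below), Cdh15 (-1.40) and Megf10 (-0.99) were still called lower and Ncam1 (0.32) higher at an adjusted p under 0.05. Myf5 was then called higher (0.45), and Pax7 (-0.14) and Des (-0.001) were not called. Markers of differentiating muscle summed to 8641 to 10039, 3405 to 4043 and 3182 to 3821 CPM, so this sum was lower in every knockout library. Most of it was Ttn (means of 7677 CPM in floxed and 2449 in knockout vehicle cells), and Ckm (2.47-fold) and Actn2 (1.71-fold) of the same list were higher in knockout vehicle cells. With the trend removed the log2 fold change of Ttn was -0.47 in place of -1.65, and those of Ckm and Actn2 were 0.82 and 0.37. Macrophage and leukocyte markers summed to 12.1 to 12.6, 17.9 to 21.3 and 20.8 to 23.3 CPM, with 7 of 12 under 1 CPM in every library and Fcgr1 at 0. Adipocyte markers summed to 8.84 to 9.56, 15.6 to 18.3 and 16.9 to 19.6 CPM, with 5 of 8 under 1 CPM in every library and Lep and Retn at 0. Endothelial markers summed to 4.96 to 6.36, 8.53 to 9.68 and 8.94 to 11.1 CPM, with 5 of 7 under 1 CPM in every library. Fibroblast markers summed to 276 to 295, 305 to 311 and 274 to 312 CPM, with Lum and Tcf21 at 0. The part of these marker differences in the results was not tested, and in such bulk RNA a smaller number of cells and less RNA per cell cannot be told apart. Across genes, which are not independent, replicate 3 of knockout vehicle correlated more closely with the oxybutynin libraries (r = 0.992 to 0.993) than with its own group (0.986 to 0.990). Replicate 1 was also closer to the oxybutynin libraries (0.988 to 0.989) than to replicate 2 (0.985). Replicate 2 was the knockout vehicle library closest to floxed ones (0.951 to 0.953, against 0.933 to 0.941 for replicates 1 and 3). Results that rest on replicate 3 are given with and without it.

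Losing Uqcrfs1 went with lower RNA for several enzymes of cholesterol synthesis and with higher RNA for the LXR target Pltp. Between knockout and floxed vehicle, 11 of the 31 tested genes fell and 5 rose at an adjusted p under 0.05 (called, below), and 15 were not called. Over all tested genes, 33.4% were called lower and 29.9% higher, so the share of these genes that fell (11 of 31) was close to the background. The median log2 fold change was -0.09 for the 31 genes and -0.01 for all tested genes. The 16 called genes were also those whose groups did not overlap, against 66.7% of all tested genes. Per kilobase of exon, the highest levels in floxed cells were those of Soat1 (42.3 CPM per kb), Srebf2 (37.4), Insig1 (25.6), Hmgcs1 (23.1) and Cyp51 (21.6). In knockout vehicle cells Hmgcs1 stood 14th in that order in place of 4th, at 9.73 CPM per kb, and Pltp 3rd in place of 20th, at 24.2 CPM per kb.

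The first 8 enzymes lead from acetyl-CoA to squalene, and 3 of them fell and 0 rose, beside 33.4% lower and 29.9% higher of all tested genes. Hmgcs1, which makes HMG-CoA, had 107, 105 and 106 CPM in the floxed vehicle libraries, 48.0, 47.1 and 39.0 with knockout and vehicle and 32.7, 28.4 and 30.4 with oxybutynin. All knockout libraries were below all floxed ones, and the vehicle difference was 2.38-fold (log2 fold change -1.25 ± 0.09 SE, adjusted p = 3.6e-09, n = 3 per group). Idi1, the isomerase that starts isoprenoid chain building, had 18.7, 20.4 and 21.4 CPM in floxed, 6.71, 7.32 and 5.47 in knockout vehicle and 4.08, 4.60 and 4.54 in oxybutynin libraries. Its level in knockout vehicle cells was 32.2% of the floxed mean, the lowest share of the 18 enzymes (-1.64 ± 0.13, adjusted p = 5.6e-09). Fdps, farnesyl diphosphate synthase, fell from 2.28 ± 0.228 (SD) to 1.35 ± 0.085 CPM (-0.74 ± 0.22, adjusted p = 0.0070). Its level is uncertain, since 1124 of its exon bases are shared with Gm43738 on the same strand and all 9 libraries held 326 counts.

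The other 5 enzymes of this stretch were not called. Acat2, Mvk, Pmvk, Mvd and Fdft1 had log2 fold changes of -0.16, 0.17, -0.55, 0.19 and 0.10. Mvk, mevalonate kinase, ran from 8.85 to 10.0 CPM in floxed and 8.28 to 12.9 in knockout vehicle libraries, so the groups overlapped. Fdft1, squalene synthase, shares exon bases with the highly expressed Ctsb on the opposite strand, and the sources used here do not give the strand setting of the counts.

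From squalene to cholesterol, 4 of 10 enzymes fell and 0 rose. Over all 18 enzymes, 7 fell and 0 rose, so the share that fell was near the 33.4% of all tested genes, while 29.9% of those rose. Of the 4 that fell after squalene, Sqle and Cyp51 were also called lower with the GC and length trend removed. Sqle, squalene epoxidase, had 94.8, 99.7 and 102 CPM in floxed, 59.9, 55.2 and 49.7 in knockout vehicle and 53.3, 55.1 and 50.9 in oxybutynin libraries (-0.85 ± 0.09, adjusted p = 1.6e-07). The knockout groups overlapped each other and both lay below the floxed libraries. Cyp51, the lanosterol demethylase, had 95.2, 95.8 and 95.6 CPM in floxed, 65.4, 59.5 and 50.0 in knockout vehicle and 48.8, 49.9 and 48.3 in oxybutynin libraries (-0.71 ± 0.09, adjusted p = 3.0e-06). The SD was 0.298 CPM among its floxed libraries and 7.81 among those of knockout vehicle. Cyp51 shares 166 exon bases with Akap9 on the opposite strand. Sc5d, a sterol desaturase, had 35.6, 39.2 and 35.8 CPM in floxed, 27.7, 29.0 and 21.9 in knockout vehicle and 20.7, 24.3 and 23.5 in oxybutynin libraries (-0.50 ± 0.11, adjusted p = 0.00080). With the trend removed Sc5d was not called (0.04, adjusted p = 0.69).

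Msmo1, a methylsterol oxidase, fell from 65.3 ± 4.75 to 52.5 ± 7.83 CPM (-0.31 ± 0.10, adjusted p = 0.014), but was called higher with the trend removed (0.25, adjusted p = 0.0079). The lower call from the counts as deposited was lost without floxed replicate 1, floxed replicate 2 or knockout vehicle replicate 3. The adjusted p was then 0.058, 0.061 and 0.061. The 6 enzymes not called were Lss, Tm7sf2, Nsdhl, Hsd17b7, Ebp and Dhcr7, with log2 fold changes between -0.19 and 0.15. Nsdhl, which removes a carboxyl group in sterol trimming, had means of 38.9 and 39.0 CPM. Tm7sf2, a sterol reductase, shares exon bases with the more highly expressed Vps51 on the same strand. Summed over all 18 enzymes, the level was 678 ± 7.35 CPM (SD, n = 3) in floxed cells, 496 ± 21.1 in knockout cells with vehicle and 467 ± 5.50 in knockout cells with oxybutynin. The sum is weighted by the most abundant enzymes, which include Hmgcs1, Sqle and Cyp51.

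**Figure D1:**
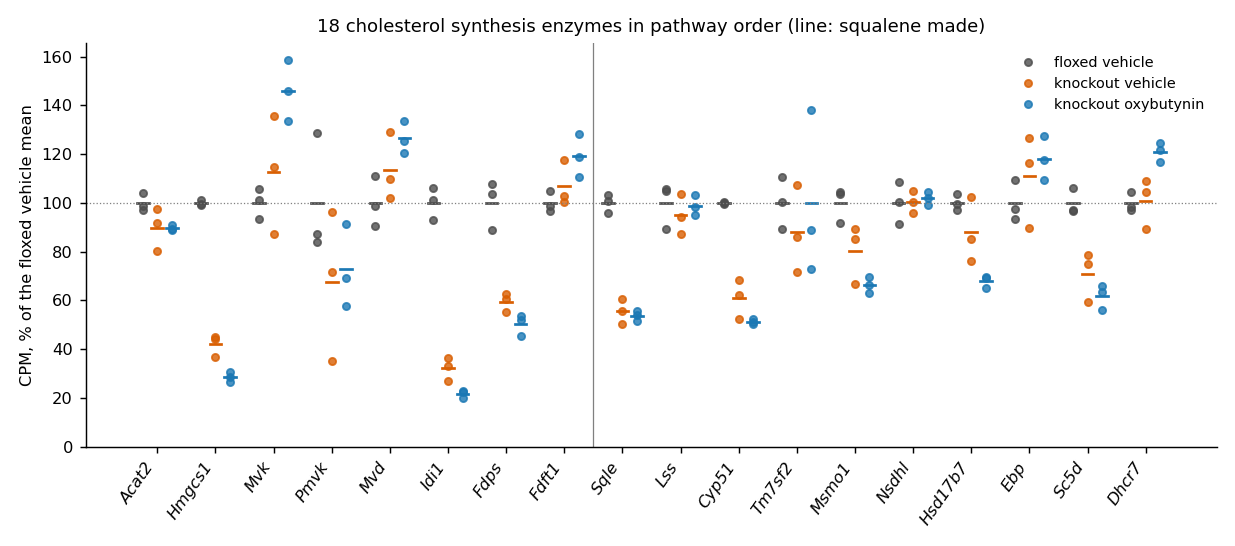
CPM of each of the 18 synthesis enzymes as a percent of its floxed vehicle mean (vertical axis), in pathway order, with a point per library, a short line at each group mean and a vertical line where squalene is made. Hmgcs1 and Idi1 stand lowest, at group means of 42.1% and 32.2% with vehicle and 28.7% and 21.8% with oxybutynin, while Nsdhl stays at 100% and 102%.

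Among the SREBP genes, Insig1 fell, Srebf1 and Scap rose by small amounts, and Srebf2 and Insig2 were not called. Insig1, the SREBP brake that is itself an SREBP target, had 80.2, 80.4 and 77.3 CPM in floxed, 59.2, 49.8 and 47.9 in knockout vehicle and 44.9, 49.7 and 48.1 in oxybutynin libraries. All knockout libraries were lower than the floxed ones (-0.60 ± 0.09, adjusted p = 1.7e-05). Srebf2, the SREBP gene known mainly for sterol synthesis, had 264 to 272 CPM in floxed and 214 to 284 in knockout vehicle libraries (-0.09 ± 0.10, adjusted p = 0.44). Srebf1, known mainly for fatty acid synthesis, rose from 61.3 ± 0.953 to 74.9 ± 9.94 CPM (0.29 ± 0.09, adjusted p = 0.013), and Scap, the SREBP escort, from 133 ± 2.14 to 156 ± 23.9 CPM (0.23 ± 0.09, adjusted p = 0.040). Srebf1 was not called without knockout vehicle replicate 3 (adjusted p = 0.052). Scap was not called without that library or without any 1 of the floxed libraries (adjusted p = 0.082 to 0.17), and both changed sign once the GC trend was removed (below). Srebf1 shares 109 exon bases with Rai1 on the opposite strand. RNA levels do not show how much SREBP protein was cleaved.

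Both LXR receptor genes rose, but the call of Nr1h2 was lost once the GC and length trend was removed (0.05, adjusted p = 0.51). Nr1h2, the widely expressed LXR beta, had 33.7, 32.8 and 36.5 CPM in floxed, 51.2, 42.5 and 60.0 in knockout vehicle and 68.4, 60.2 and 62.3 in oxybutynin libraries (0.58 ± 0.11, adjusted p = 0.00021). The 3 groups did not overlap. Nr1h3, LXR alpha, was near the limit of detection, with 3, 7 and 7 counts in floxed, 18, 13 and 20 in knockout vehicle and 14, 13 and 7 in oxybutynin libraries. In CPM these were 0.153, 0.301 and 0.311, then 0.838, 0.544 and 0.810, then 0.571, 0.511 and 0.314 (1.47 ± 0.42, adjusted p = 0.0054). Floxed and knockout vehicle libraries did not overlap, and the floxed mean per kilobase was 0.101 CPM against 10.2 for Nr1h2.

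The LXR targets did not move together: 1 of 4 tested rose and 1 fell. Pltp, the phospholipid transfer protein, had 13.3, 14.6 and 14.4 CPM in floxed, 58.6, 56.6 and 70.4 in knockout vehicle and 71.5, 62.6 and 68.7 in oxybutynin libraries. The 4.38-fold rise had the lowest p-value of the 31 genes (2.13 ± 0.10, adjusted p = 3.4e-11), and the knockout groups overlapped. Pltp shares 495 exon bases with Ctsa on the opposite strand, which had 21715 counts in all against 10148 for Pltp. Mylip, a ubiquitin ligase that degrades lipoprotein receptors, had 7.66, 7.04 and 6.54 CPM in floxed, 4.61, 4.69 and 4.45 in knockout vehicle and 3.55, 4.05 and 4.63 in oxybutynin libraries (-0.63 ± 0.14, adjusted p = 0.0011). Abca1, the main exporter of cholesterol to lipoprotein, had 0.715 to 1.38 CPM in floxed and 0.978 to 2.09 in knockout vehicle libraries and was not called (0.69 ± 0.31, adjusted p = 0.061). It was called without floxed replicate 3 or knockout vehicle replicate 1 (log2 fold changes of 0.94 and 0.99). Apoe, the lipoprotein component, was not called (0.51 ± 0.28, adjusted p = 0.12), and Abcg1 had at most 6 counts in any library.

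Both genes of sterol transfer and storage fell. Stard4, which carries sterol between membranes, had 30.5, 34.7 and 33.5 CPM in floxed, 17.4, 17.0 and 12.6 in knockout vehicle and 9.84, 11.1 and 12.3 in oxybutynin libraries (-1.08 ± 0.12, adjusted p = 7.8e-07). The 3 groups did not overlap. Soat1, which esterifies cholesterol for storage in droplets, had 423, 419 and 399 CPM in floxed, 313, 338 and 260 in knockout vehicle and 264, 284 and 295 in oxybutynin libraries (-0.44 ± 0.09, adjusted p = 0.00041). Its fall was 1.36-fold and its sign changed once the GC trend was removed.

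**Figure D2:**
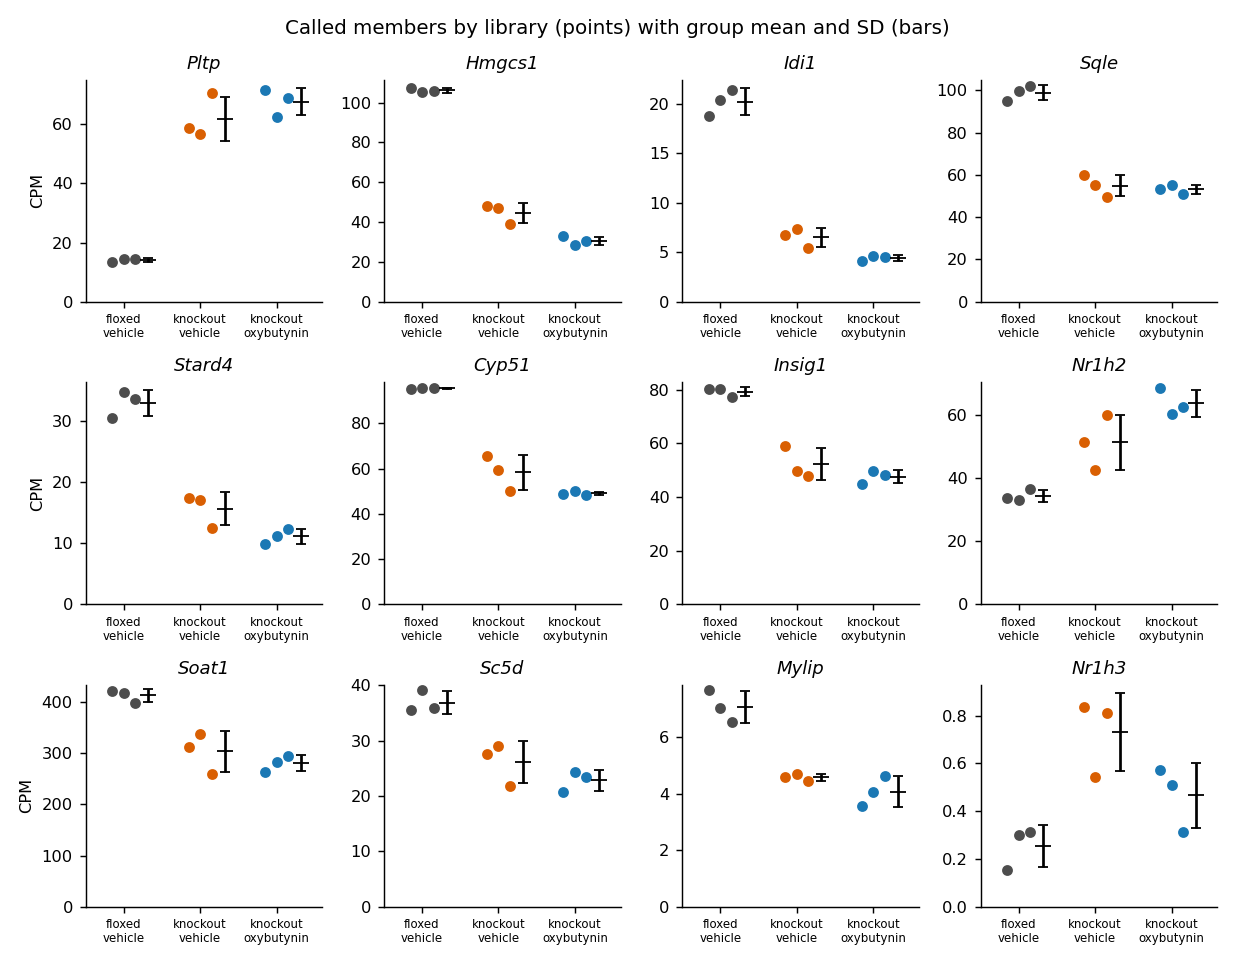
CPM (vertical axes, each from 0) of the 12 called genes with the lowest adjusted p between knockout and floxed vehicle, with a point per library and the mean and SD of each group of 3 as bars. Knockout vehicle and floxed vehicle libraries do not overlap in any panel. In Hmgcs1, Idi1, Stard4 and, by a small margin, Cyp51 the oxybutynin libraries lie lower again, and in Nr1h2 they lie higher again.

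The fold changes of all genes followed base composition, which bears on which of these calls stand. Across 12976 protein-coding genes, the Spearman correlation of the log2 fold change with transcript GC content was 0.56 between knockout and floxed vehicle and 0.71 between knockout oxybutynin and knockout vehicle, as a description, since genes share libraries. The 11 genes that fell had a median GC content of 45.3% (41.1 to 52.4%), the 5 that rose 57.6% (55.3 to 60.9%) and the 15 others 52.2%. When the dependence on GC content and exon length was taken out of every library, without using the groups, 17 of the 31 genes were called lower and 6 higher, against 30.2% and 27.9% of all tested genes. Of the 11 genes that fell, 8 were still called lower: Hmgcs1 (-0.66), Idi1 (-0.78), Fdps (-1.03), Sqle (-0.86), Cyp51 (-0.51), Insig1 (-0.53), Mylip (-0.80) and Stard4 (-0.70). Msmo1 was called higher (0.25), and Sc5d (0.04) and Soat1 (0.12) were not called.

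Of the 5 genes that rose, Pltp (1.63, adjusted p = 1.1e-11) and Nr1h3 (0.99, adjusted p = 0.045) were still called higher. Nr1h3 was close to the threshold and had only 3 to 7 counts per floxed library. Srebf1 was called lower (-0.17), and Nr1h2 (0.05) and Scap (-0.09) were not called. Genes not called from the counts as deposited but called with the trend removed were, on the lower side, Acat2 (-0.35), Mvk (-0.35), Pmvk (-0.97), Mvd (-0.30), Fdft1 (-0.18), Tm7sf2 (-0.60), Dhcr7 (-0.22) and Srebf2 (-0.47), and on the higher side Nsdhl (0.29), Insig2 (0.26) and Abca1 (0.92). On that scale all 8 enzymes from acetyl-CoA to squalene were called lower, against 4 lower and 2 higher of the 10 that follow. The removal also takes out any change by genotype that runs with GC content, and whether the trend is biological or technical was not tested.

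**Figure D3:**
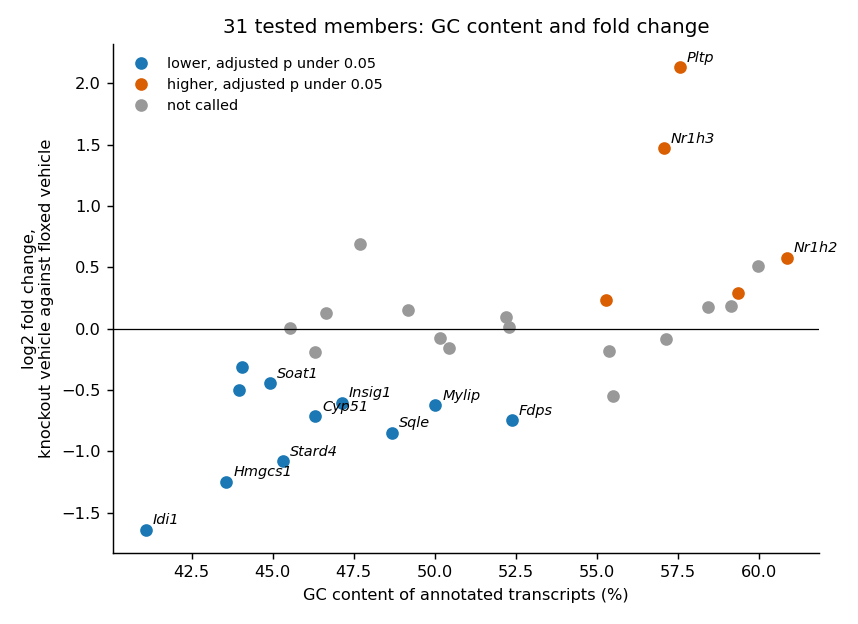
GC content of the annotated transcripts (horizontal axis, percent) against the log2 fold change between knockout and floxed vehicle (vertical axis) for the 31 tested genes, coloured by call. The 11 genes that fell lie between 41.1% and 52.4% GC and the 5 that rose between 55.3% and 60.9%; of these 16, Msmo1, Sc5d, Soat1, Srebf1 and Scap change sign when the trend is removed.

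**Figure D4:**
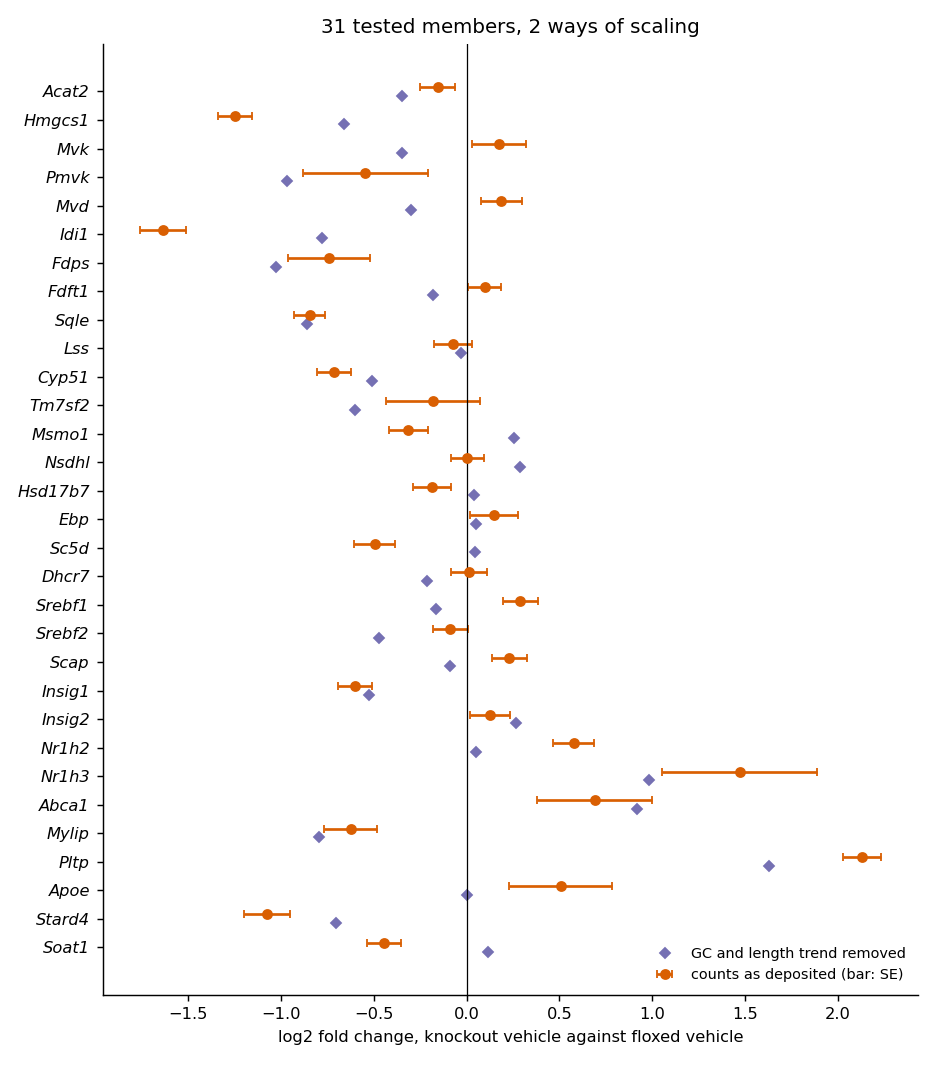
Log2 fold change between knockout and floxed vehicle (horizontal axis) of the 31 tested genes, from the counts as deposited (circles with SE) and with the GC and length trend removed (diamonds). Pltp stays highest (2.13 and 1.63), Hmgcs1, Idi1, Sqle and Stard4 stay on the lower side on both scales, and of the 16 called genes Msmo1, Sc5d, Soat1, Srebf1 and Scap lie on opposite sides of 0.

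With oxybutynin, Hmgcs1, Idi1 and Stard4 were lower again in every library than in knockout cells with vehicle, but no gene of the set passed the threshold of edgeR's test. Between knockout oxybutynin and knockout vehicle, 0 of the 31 genes were called by edgeR, as were only 2 of all 15720 tested (0.0127%). At an unadjusted p under 0.05 there were 12 of the 31 genes, 7 of them lower, and 4084 genes in all. The lowest adjusted p of the 31 was that of Hmgcs1 (-0.55 ± 0.09, adjusted p = 0.051), with 30.5 ± 2.19 CPM against 44.7 ± 4.97. Stard4 (-0.49 ± 0.13, adjusted p = 0.072), Idi1 (-0.56 ± 0.14, adjusted p = 0.068) and Hsd17b7 (-0.37 ± 0.10, adjusted p = 0.076) came next.

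Groups with and without the drug did not overlap for 9 genes. Hmgcs1, Idi1, Fdps, Cyp51, Hsd17b7, Insig2 and Stard4 were lower in every oxybutynin library, 7 of 31 against 11.6% of all tested genes. For Cyp51 the margin was small, with a highest oxybutynin value of 49.92 CPM and a lowest knockout vehicle value of 49.96. Dhcr7, the reductase of the last step to cholesterol, and Nr1h2 were higher in every one, 2 of 31 against 10.5%. Dhcr7 had 29.1, 24.8 and 30.3 CPM with vehicle and 32.5, 33.9 and 34.6 with oxybutynin (0.26 ± 0.10, adjusted p = 0.12). Side by side, the knockout difference and the drug difference were -0.85 and -0.05 for Sqle, -0.60 and -0.14 for Insig1, 2.13 and 0.13 for Pltp, and 1.47 and -0.63 for Nr1h3. Both comparisons use the knockout vehicle libraries, so these pairs of values are not independent.

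The drug result turned on the tool and on 1 library. DESeq2 called 4 genes lower, Hmgcs1 (-0.56), Idi1 (-0.57), Hsd17b7 (-0.38) and Stard4 (-0.51), and 0 higher, against 10.3% lower and 1.86% higher of the 9320 genes to which it gave an adjusted p. Pmvk, Fdps, Tm7sf2, Nr1h3, Abca1, Mylip and Apoe got no adjusted p from DESeq2 in this comparison. Without knockout vehicle replicate 3, edgeR called 8 genes lower and 7 higher, against 14.4% and 11.6% of 16097 tested genes. The 8 lower were Hmgcs1 (-0.64), Idi1 (-0.67), Cyp51 (-0.35), Msmo1 (-0.40), Hsd17b7 (-0.47), Sc5d (-0.31), Stard4 (-0.63) and Soat1 (-0.21). The 7 higher were Mvk (0.53), Dhcr7 (0.32), Srebf1 (0.29), Srebf2 (0.32), Scap (0.38), Nr1h2 (0.44) and Pltp (0.23). With all libraries and the GC and length trend removed, 0 genes of the set were called, as were 0 of all 15720 tested genes. The lack of calls in that fit is therefore not particular to this set. Hmgcs1 and Idi1 then differed by -0.36 and -0.37 (adjusted p = 0.096 and 0.23). The share of counts from the noncoding gene Gm26917 also differed between the groups, at 7.37 to 7.97% of floxed libraries, 7.44 to 11.4% of knockout libraries with vehicle and 10.4 to 13.4% of those with oxybutynin, and its part in the result was not tested.

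The same library, and replicate 2 of its group, also moved the count of higher genes between knockout and floxed vehicle. Without replicate 3, 3 genes were higher (Pltp, Nr1h2 and Nr1h3) and 10 lower, against 27.2% and 30.7% of all genes. Without replicate 2, 9 were higher and 12 lower, against 33.5% and 34.7%, with Mvk, Mvd, Ebp and Apoe added on the higher side and Hsd17b7 on the lower.

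Against floxed vehicle, knockout cells with oxybutynin had 12 of the 31 genes lower and 9 higher, where 36.9% and 35.1% of all genes were called. Idi1 was 4.58-fold lower (-2.20 ± 0.13, adjusted p = 1.6e-10), Hmgcs1 3.48-fold lower (-1.80 ± 0.09, adjusted p = 4.1e-11) and Stard4 2.97-fold lower (-1.57 ± 0.13, adjusted p = 6.3e-09). Pltp was 4.78-fold higher (2.26 ± 0.10, adjusted p = 1.2e-11) and Nr1h2 1.85-fold higher (0.89 ± 0.11, adjusted p = 1.4e-06). The others lower were Fdps, Sqle, Cyp51, Msmo1, Hsd17b7, Sc5d, Insig1, Mylip and Soat1, and the others higher were Mvk, Mvd, Fdft1, Dhcr7, Srebf1, Scap and Apoe. With the GC and length trend removed the split was 15 lower and 5 higher, against 31.1% and 29.5% of all genes, and of the 21 called genes Mvk, Mvd, Fdft1, Msmo1, Sc5d, Srebf1 and Soat1 changed sign.

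Other genes of sterol and lipid handling were counted in 6 lists between knockout and floxed vehicle, beside the 29.9% higher and 33.4% lower of all genes. Of 28 genes for cholesterol uptake, transport and esters, 17 rose and 3 fell, with a median log2 fold change of 0.39. Vldlr, a lipoprotein receptor, rose from 24.1 ± 2.15 to 87.2 ± 8.49 CPM (1.85 ± 0.10, adjusted p = 6.4e-11). Stard5, a sterol carrier (2.08), Abca3, a lipid transporter (1.44), and Lrp1, an endocytic receptor (0.94), also rose, and these 4 were called higher with the GC trend removed too (2.10, 1.93, 1.23 and 0.82). In this list 19 genes were higher and 4 lower with the trend removed.

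The genes listed as oxysterol and bile acid enzymes were weakly expressed, and not all of them act on oxysterols, the ligands of LXR. Of 6 tested of 8 listed, 4 rose and 0 fell. Cyp27a1, which makes an oxysterol in mitochondria, rose from 0.104 ± 0.0617 to 1.71 ± 0.446 CPM (3.94 ± 0.42, adjusted p = 3.1e-07), and Ch25h, which makes another, from 0.529 ± 0.105 to 1.61 ± 0.241 CPM (1.59 ± 0.29, adjusted p = 0.00014). Hsd11b1 (1.88) and Dhrs9 (1.71) rose as well, and with the GC trend removed 5 were higher and 1 lower. Macrophages also express Cyp27a1, Ch25h and Pltp, and the summed macrophage markers given above were higher in the knockout libraries. Between knockout and floxed vehicle, single markers moved both ways: Cx3cr1 was 4.08-fold, Cd68 2.27-fold and Csf1r 2.24-fold higher, and Mrc1 was 3.48-fold lower. Cd68 alone went from a mean of 4.74 to 10.8 CPM. Csf1r had 3 to 6 counts in floxed and 10 to 12 in knockout vehicle libraries, and DESeq2 did not call it (adjusted p = 0.087). Ptprc had 2, 8 and 3 counts in floxed and 0, 0 and 2 in knockout vehicle libraries and was not tested. Adgre1 was lower but not called (-0.48, adjusted p = 0.30). The part of the macrophage markers in these results, and that of the adipocyte and endothelial markers, was not tested.

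The branches that use isoprenoids changed in both directions, with 8 of 19 genes higher and 7 lower. The 4 with the lowest p-values fell: Chml (-2.81 ± 0.11, adjusted p = 2.5e-12) and Chm (-1.29), escorts for the prenylation of Rab proteins, Pggt1b (-1.62), a prenyltransferase subunit, and Pdss1 (-1.26), which builds the ubiquinone tail. With the GC trend removed Chml (-1.95), Pggt1b (-0.78) and Pdss1 (-0.69) stayed lower and Chm (-0.02) was not called, and the list gave 2 higher and 4 lower.

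Fatty acid genes known as SREBP1 targets gave 9 higher and 4 lower of 18 tested. Elovl6, which lengthens fatty acids, fell from 70.3 ± 1.99 to 13.6 ± 0.711 CPM (-2.37 ± 0.10, adjusted p = 8.7e-12), while Acacb, which makes malonyl-CoA at mitochondria, rose from 4.32 ± 0.474 to 26.6 ± 1.46 CPM (2.62 ± 0.12, adjusted p = 2.2e-11). Acss2, which makes acetyl-CoA from acetate (1.65), and Slc25a1, the mitochondrial citrate carrier (1.31), rose too, and the split was 9 higher and 7 lower with the trend removed. The LXR partners and further targets gave 5 higher and 4 lower of 11 tested, among them Tnfaip2 (2.48), Smpdl3a (1.56) and Lpl, lipoprotein lipase (1.08), on the higher side and Ncor1, a corepressor of LXR (-0.995), on the lower. With the trend removed that split was 4 higher and 6 lower. In SREBP processing and degradation 5 of 12 rose and 4 fell. Erlin2 rose (0.55), and Ubxn4 (-0.60) and Mbtps2, a protease that cleaves SREBP (-0.62), fell. With the trend removed 6 were higher and 3 lower, and Mbtps2 was called higher (0.35). With oxybutynin against knockout vehicle, edgeR called 0 of the 94 tested genes of the 6 lists and 2 of all 15720. At an unadjusted p under 0.05 there were 41 of the 94 and 4084 of all 15720. DESeq2 called 4 of the 94 higher and 8 lower. It called 1.86% higher and 10.3% lower of the 9320 genes to which it gave an adjusted p, and how many of the 94 had one was not counted.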

How the data were processed

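The authors deposited whole-number counts per gene, not normalized, for 9 libraries. Per the labels' protocols, total RNA was taken with Trizol and directional libraries were made with a NEBNext kit. Tools named in the submitters' processing notes are STAR 2.7.0e, DESeq2 1.26.0, Trim Galore 0.6.0, FastQC and cutadapt, and the builds named are mm10 and GRCm38. Not given in the sources used here were the counting step, its strand setting and its annotation. GENCODE M21 (GRCm38) holds all 55536 gene IDs and 0 columns lacked a sample.

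Counts were tested with edgeR 4.0.16 (R 4.3.3): filterByExpr, TMM scaling, and the quasi-likelihood test on 3 group means over all 9 libraries (6 residual degrees of freedom), with Benjamini-Hochberg adjustment over 15720 genes. SEs came from the same fit. The script was tested on simulated data. The GC and length trend of each library was fitted with splines (5 degrees of freedom each, log2 CPM with prior count 2) and used as an offset. Other alternatives were DESeq2 1.42.0, limma-voom (limma 3.58.1), other scalings, filters, samples and thresholds, and leaving out each library. Reads were not analysed here.

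The 32 genes and all lists were chosen with earlier results of these data known. A gene has its value in every library if called and among the 12 lowest adjusted p of a comparison. In other lists up to 4 called genes with the lowest adjusted p are named, and 1 such gene is not reported here. Genes given in the paragraphs on the drug were named after their values were seen.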

Additional observations from a re-analysis of the deposited data

How the results depend on the processing

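Of 1138 recomputed log2 fold changes for 57 results (each a gene in a comparison), 1039 kept their direction and their side of the threshold. Of the rest, 44 lost a call, 30 gained a call and 25 changed sign. The counts of called genes that follow are not among these values. Between knockout and floxed vehicle, the count of higher genes was 3 with a mean of at least 1 CPM, 3 at an adjusted p under 0.01, 2 at a change of at least 1.5-fold, and 3 to 9 when 1 library was left out. The count of lower genes was 17 with the GC and length trend removed. Against knockout vehicle, the oxybutynin count of lower genes was 4 with DESeq2, 1 with RLE scaling, 1 with library totals only, 4 with no filter and 0 to 8 when 1 library was left out (8 without knockout vehicle replicate 3, 1 without replicate 2). The count of higher genes was 0 to 7 in the same refits. Against floxed vehicle, the oxybutynin count of higher genes was 5 with the trend removed, 5 at an adjusted p under 0.01 and 3 at a change of at least 1.5-fold. Shares of all genes are given above for DESeq2, for the trend removed and for the fits without knockout vehicle replicate 3. Without replicate 2, 51 genes in all were called lower with oxybutynin against knockout vehicle. The other settings are given without such a share. There a change in these counts cannot be told apart from one in the background. The cause was not tested.

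Sign changes between knockout and floxed vehicle with the trend removed were those of Mvk (-0.35), Mvd (-0.30), Fdft1 (-0.18), Msmo1 (0.25), Sc5d (0.043), Dhcr7 (-0.22), Hsd17b7 (0.041), Srebf1 (-0.17), Scap (-0.091) and Soat1 (0.12). Values near 0 also changed sign for Nsdhl (-0.017 at a mean of at least 1 CPM, -0.053 with protein-coding genes only, -0.057 to 0.067 leaving out 1 library), Dhcr7 (-0.0072, -0.044, and -0.039 to 0.10) and Srebf2 (-0.17 to 0.025). Against floxed vehicle, oxybutynin values changed sign with the trend removed for Mvk (-0.18), Mvd (-0.38), Fdft1 (-0.092), Msmo1 (0.19), Sc5d (0.042), Srebf1 (-0.14) and Soat1 (0.22), and for Lss (0.079), Tm7sf2 (-0.55), Srebf2 (-0.37) and Insig2 (0.12), which were not called from the counts as deposited. Where 1 library is left out, its group has 2.

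No paired analysis was possible because the labels give the libraries no replicate number shared between groups. Counting limits Nr1h3, Fdps, Pmvk, Tm7sf2, Abca1 and Apoe, which had means under 3 CPM in every group.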
